A study of Homo sapiens with 24 samples.

Results

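A set of 3822 introns was kept in nuclear polyadenylated RNA and nearly missing from cytoplasmic RNA in control RKO cells, a cell line from a human colon carcinoma. The introns were chosen by their retention in the control libraries with DMSO. Each had a mean intron retention (IR) ratio of at least 0.5 over the 3 control nuclear libraries and under 0.05 over the 3 control cytoplasmic libraries. The IR ratio is the read depth over the intron divided by the sum of that depth and the spliced reads that join the flanking exons. The mean of this sum also had to reach 20 in each set of libraries. The members make up 3.16% of the 120924 introns that the intron caller classed as clean and that had this depth, out of 233113 introns listed in all. The class still holds introns that lie inside an annotated exon, as given below. They lie at 2830 loci, since overlapping introns with a shared end were listed separately (596 loci), and in 2281 genes, which is 23.1% of the 9862 genes with an intron of enough depth. The same reads can enter overlapping members, so introns are described here and libraries are the replicates.

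The cells carried a Cas9 induced by doxycycline and either sgERH, a guide RNA that targets the gene ERH, or sgAAVS1, a control guide that cuts the safe-harbour site AAVS1. All groups were given doxycycline at 100 ng/mL for 5 days, and then cycloheximide (CHX) at 25 µg/mL or its solvent DMSO for 4 h. Cells were opened with a mild detergent, nuclei were spun down, and polyadenylated RNA of each fraction was sequenced, which gave 8 groups of 3 libraries and 24 in all. The replicates were labelled biological with no further detail, so p-values measure only the spread between these libraries. The nuclear libraries held 27.8 to 41.8 M counts (1 M = 1e+06) and the cytoplasmic libraries 44 to 79.5 M, and no pair of libraries was identical (0 pairs).

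ERH mRNA stood at 121, 140 and 138 counts per 1e+06 counts (CPM) in control cytoplasm with DMSO and at 73.2, 86.9 and 60.1 in sgERH cytoplasm. With CHX it was 120, 125 and 109 CPM in the control and 74.6, 88.4 and 67.8 with sgERH, so that the guides did not overlap in the cytoplasm. In the nucleus the guides overlapped, at 16.8 ± 3.15 CPM (SD, n = 3) against 13.2 ± 1.96 with DMSO, and at 13.8 ± 0.613 in the control against 14.9 ± 3.51 with sgERH with CHX. An mRNA level does not measure how many alleles were edited. By the mean in control cytoplasm with DMSO, 4 of 10 markers of colon epithelium were above 1 CPM (EPCAM, KRT8, KRT18 and CDX2), as were 0 of 4 fibroblast markers and 1 of 4 leukocyte markers, CD68. The fibroblast marker COL1A1 averaged 1.17 CPM in control nuclei with DMSO. The nuclear RNA MALAT1 stood at 4619 CPM in control nuclei and 204 in control cytoplasm.

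Introns that stay in otherwise spliced, polyadenylated transcripts are called detained when the transcripts remain in the nucleus. Such transcripts may be spliced later or degraded, and they escape nonsense-mediated decay, the cytoplasmic pathway that removes mRNAs with an early stop codon during translation. ERH is a small, conserved protein of the nucleus that partners with factors of RNA processing. CHX blocks the ribosome, and decay that depends on translation stops too.

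The splice sites below belong to introns that the results turn on. They were read from GRCh38, 5′ to 3′ on the transcript strand, with 3 exon and 12 intron bases for a donor and 20 intron and 3 exon bases for an acceptor. Capitals mark the first and last pair of intron bases. Among the first group are abundant members that fell in sgERH nuclei and OGA, which moved otherwise with CHX.
HNRNPH1 intron 5 donor: cagGTggggatggat
HNRNPH1 intron 5 acceptor: ccttatgaacaatgctttAGgta
RPL10 intron 5 donor: cagGTgagcttggtc
RPL10 intron 5 acceptor: cttgcactaccccaatgtAGgct
OGA intron 10 donor: tagGTaggtgcacca
OGA intron 10 acceptor: cttggatctgatctcaacAGggt
Members with a donor of the minor (U12-type) spliceosome have a different consensus, and the 4 of highest depth among the 20 are shown. Capitals in their donors mark the A or G and the TATCCTT with which the intron begins.
PSMA1 intron 5 donor: gcaGTATCCTTttta
ARPC5L intron 3 donor: gcaATATCCTTccct
SRSF10 intron 2 donor: tcaATATCCTTtctt
ALG3 intron 7 donor: accATATCCTTtaaa

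The members were short and rich in G and C. Their median length was 1019 bases, against 2075 for the 57508 introns that were under 0.05 in both control fractions. Their median GC content was 52.0%, against 41.1% in the spliced introns. The introns kept in both fractions (nuclear IR ratio of at least 0.5, cytoplasmic at least 0.05, 1805 introns) were close to the members in both, at 1163 bases and 51.3%. Lengths ran from 62 to 189611 bases, and 190 members were under 100 bases. In terms of GC class, members were 1.73% of introns under 45% GC (1188 members), 3.68% of those between 45 and 55% (1100) and 6.81% of those above 55% (1532). All these values describe how the members differ, with no test, since neighbouring and overlapping introns are not independent.

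Splice sites of the members matched the consensus less well than those of spliced introns, at the donor and at the acceptor. Sites were scored as log2-odds from the base shares at each position over the introns of enough depth that begin with GT and end with AG. Donor and acceptor scores cover different numbers of bases, so they are not on a common scale. The median donor score was 7.80 in members, 7.44 in introns kept in both fractions and 8.36 in spliced introns. The median acceptor score was 8.05, 7.51 and 10.1 in the same order. The acceptor of HNRNPH1 intron 5 scored 2.47 and its donor 8.17. GT-AG ends were found in 3751 members, GC-AG ends in 56 (1.47%, against 0.889% in spliced introns) and AT-AC ends in 7. U12-type donors were present in 20 members (0.523%), 10 introns kept in both fractions (0.554%) and 79 spliced introns (0.137%), and in 0.327% of all introns of enough depth.

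The retained sequence itself is annotated as exonic in some transcripts: 971 members (25.4%) were spanned whole by an exon of an annotated transcript, against 1.73% of spliced introns and 22.99% of introns kept in both fractions. Of the members, 2481 (64.9%) were introns of a canonical transcript, and 2353 of these lay in the coding part. The 5′ UTR held 108 (4.35%), compared to 11.3% of introns kept in both fractions and 2.09% of spliced introns. Among introns of canonical transcripts with more than 1 intron, first introns were 9.002% of members and 17.2% of introns kept in both fractions, and last introns 10.5% and 17.2%. Length was a multiple of 3 in 34.5% of members and 33.6% of spliced introns. In control nuclei with DMSO, a median of 75.2% of a member's spliced reads joined exactly its own ends. This share was 49.1% in introns kept in both fractions and 98.3% in spliced introns, so part of the members' spliced reads used other sites. Reads covered at least 95% of the intron in 3670 members (96.0%), and 1495 (39.1%) carried no warning of the intron caller in any of the 3 control nuclear libraries.

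The limits cut through a continuous range of IR ratios. The members nearest to the nuclear limit were introns of ANKRA2 (0.50013) and INF2 (0.50015), and the nearest introns left out were those of TCF7L2 (0.49998) and MARCHF7 (0.49996). At the cytoplasmic limit ACAD8 (0.04996) and FAHD2A (0.04991) were inside, and URI1, at the limit itself, and PSTK (0.05002) outside. The limits held for the means, and 2267 members (59.3%) met both in every control library. Of 5627 introns at 0.5 or above in control nuclei, 67.9% were members.

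**Figure D1:**
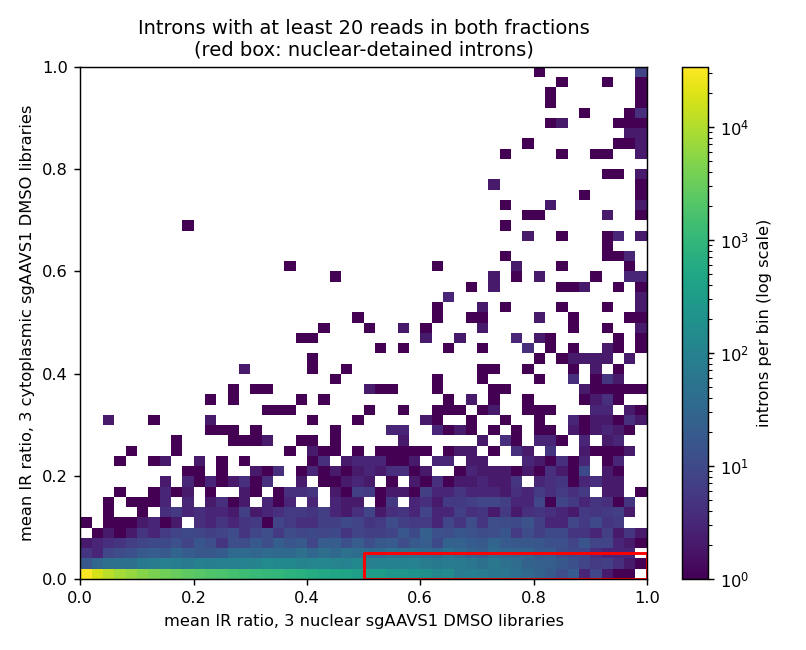
Mean IR ratio in control nuclei (horizontal axis) and control cytoplasm (vertical axis), both with DMSO, for the introns with enough depth. Shading gives the number of introns per bin, and a box marks the limits that choose the 3822 members. Most introns lie near 0 on both axes, and the members lie at the lower right with no gap at either limit.

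The median IR ratio of the members was higher in the nucleus than in the cytoplasm in all 4 kinds of cells. Outside the control with DMSO, only part of the members still met both limits. The shares were 38.6% in sgERH cells with DMSO, 58.2% in control cells with CHX and 18.6% in sgERH cells with CHX. With CHX in both, the nuclear levels of the members were lower with sgERH than in the control. The median IR ratio of the members was 0.613, 0.591 and 0.613 in the 3 control nuclear libraries that chose them, and 0.577, 0.560 and 0.570 in control nuclei with CHX. In sgERH nuclei it was 0.503, 0.498 and 0.509 with DMSO and 0.393, 0.353 and 0.397 with CHX. Of the 4 nuclear groups, the control with DMSO was set high by the choice, so nothing is read from its place at the top. The groups that the choice did not use did not overlap, and sgERH with CHX was lowest. Group means of these medians were 0.606 ± 0.0124, 0.569 ± 0.00880, 0.503 ± 0.00575 and 0.381 ± 0.0245 (SD, n = 3) in that order. In the cytoplasm they were 0.0149 ± 0.00251 and 0.0116 ± 0.00180 in the control with DMSO and CHX, and 0.01997 ± 0.00147 and 0.0136 ± 0.00107 with sgERH. A bulk ratio cannot tell an intron kept in part of the transcripts of every cell from an intron kept in all transcripts of fewer cells.

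Levels fell in introns as a whole too. Over all introns of enough depth the nuclear median was 0.0544 in the control and 0.0446 with sgERH under DMSO, and 0.0559 and 0.0293 under CHX. The introns kept in both fractions went from 0.737 to 0.656 and from 0.701 to 0.532. The share of mitochondrial mRNA in nuclear libraries moved with the guide, from 0.451 ± 0.0637% to 0.679 ± 0.0441% with DMSO and from 0.379 ± 0.0467% to 0.670 ± 0.125% with CHX. Reads across exon-intron boundaries per 100 spliced reads were 18.3 and 14.9 in control and sgERH nuclei with DMSO and 17.97 and 12.04 with CHX. The part of cytoplasmic RNA in the nuclear libraries in these results was not tested.

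**Figure D2:**
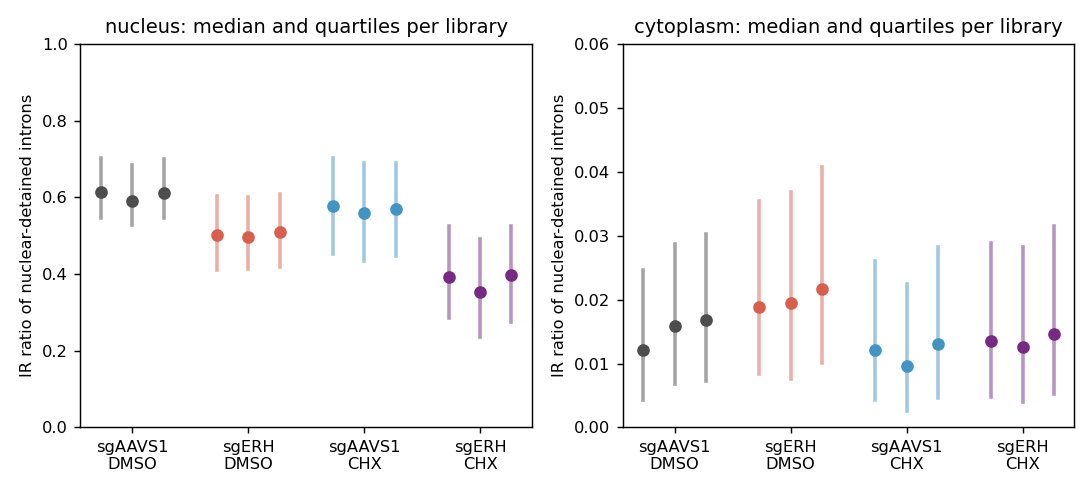
Median IR ratio of the 3822 members in each of the 24 libraries (points, with bars for the quartiles), by fraction, guide and treatment. The fractions are drawn on different scales. Nuclear medians run from 0.353 in an sgERH library with CHX to 0.613 in control libraries with DMSO, and every cytoplasmic median lies far below them.

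The 2 terms of the ratio moved in opposite directions with sgERH. Per 1e+06 counts of a library, the median log2 ratio of sgERH to control in nuclei with DMSO was -0.29 for the intron depth (lower in 2888 members, higher in 934) and 0.37 for the spliced reads (higher in 2933). Over all introns of enough depth these medians were -0.22 and 0.17. Under CHX the members had -0.51 for the intron depth and 0.59 for the spliced reads, against -0.69 and 0.25 over all introns of enough depth. CHX in control cells gave -0.39 for the members' intron depth and -0.11 for their spliced reads. These values are descriptions, and those with DMSO use the libraries that chose the members.

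The order of nucleus over cytoplasm was kept in cells that the choice did not use. The mean nuclear IR ratio exceeded the cytoplasmic one in 3822 members in sgERH cells with DMSO, 3820 in control cells with CHX and 3821 in sgERH cells with CHX. The 3 nuclear libraries all exceeded the 3 cytoplasmic ones in 3818, 3809 and 3766 members. This order was not particular to the members. In the test described below, intron depth relative to spliced reads was higher in the nucleus in 110959 of 111740 introns in sgERH cells with DMSO. The same held in 107873 of 108503 in control cells with CHX and 99845 of 100738 in sgERH cells with CHX. The share of all introns whose libraries did not overlap was not counted. Both limits of the rule still held in 1476 members (38.6%) in sgERH cells with DMSO, 2223 (58.2%) in control cells with CHX and 711 (18.6%) in sgERH cells with CHX. The nuclear limit was the one most often missed, since 1933, 2514 and 986 members stayed at 0.5 or above. The cytoplasmic mean reached 0.05 in 586, 325 and 414 members, and 0.1 in 106, 49 and 83.

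The test of these differences used the intron depth and the spliced reads of each library in edgeR, as the change of the first relative to the second. It was run over all introns that passed a filter on depth, with Benjamini-Hochberg adjustment over all of them. An intron was called at an adjusted p of at most 0.05, a log2 fold change of at least 1 in size and an IR ratio of at least 0.05 in the higher group. Nuclear retention was called higher in 3801 of 3810 tested members in control cells with CHX, 3820 of 3822 in sgERH cells with DMSO and 3791 of 3816 in sgERH cells with CHX. Among all introns tested 65.5%, 56.9% and 52.5% were called higher in the nucleus, so most introns moved this way. The members were chosen for this contrast in control cells with DMSO, and nearly all reach the IR ratio of 0.05 that a call needs. Their larger share is therefore not read as a result. The fold changes of this fit are not given, because depth was 0 in the cytoplasm for many introns. Where each kind of read was scaled on its own, 1878, 1785 and 1270 members were called higher and 44, 16 and 32 lower. Among all introns 15, 11.7 and 7.38% were then called higher and 1.39, 1.7 and 1.31% lower. This scaling did not centre the bulk of introns here: the median log2 fold change was 5.63, 4.52 and 3.12 over all introns tested. The members' medians were lower, at 1.66, 1.42 and 1.41. These medians carry the same limit of depth.

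In nuclei with CHX, 1589 of 3805 tested members (41.8%) were lower with sgERH than with the control guide, and 2 were higher. Among all 112008 introns tested 16.2% were called lower and 0.663% higher (16.9% in either direction). These shares are not on equal terms. A call asks for an IR ratio of at least 0.05 in the higher group, which 3818 members reached in control nuclei with CHX. The median there was 0.0559 over all introns of enough depth, so many of them could not be called lower. Members were also chosen as high in control cells. The same limit of the call holds for the shares of all introns below. The median log2 fold change was -1.11 in the members and -0.95 over all introns tested. The introns kept in both fractions, also chosen at 0.5 or above in control nuclei with DMSO, had 524 of 1784 called lower (29.4%). With 1 intron per locus the share was 1157 of 2814, and among members with no warning 648 of 1494. When intron depth and spliced reads were scaled separately, the median of all introns moved to -0.15 and that of the members to -0.28. With this scaling 105 members (2.76%) were lower and 25 higher, against 0.643 and 1.27% of all introns tested, so the number of calls rests on the scaling while the members remained below the median of all. The count was 585, 818 and 664 without control CHX nuclear replicate 1, 2 and 3 in turn, each fit resting on the other 2 control libraries.

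**Figure D3:**
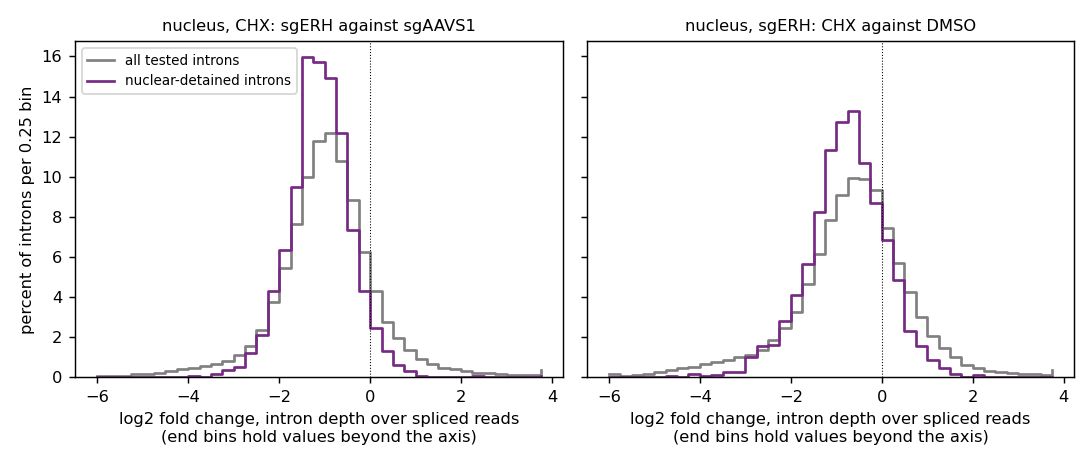
Distribution of the log2 fold change of intron depth relative to spliced reads for members and for all introns tested, for sgERH against control in nuclei with CHX and for CHX against DMSO in sgERH nuclei. The members' distributions lie at lower values, with medians of -1.11 against -0.95 and -0.75 against -0.58.

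Intron 5 of HNRNPH1 (chr5:179618324-179619268, minus strand, 945 bases), which encodes a splicing regulator, had IR ratios of 0.831, 0.808 and 0.814 in control nuclei with CHX. With sgERH they were 0.636, 0.606 and 0.662. All sgERH libraries were below all control libraries, with a log2 fold change of -1.37 (SE 0.17, adjusted p = 0.0015 by edgeR). With separate scaling its log2 fold change was -0.54 and the call was lost. In control nuclei with DMSO it stood at 0.774, 0.796 and 0.780, and in sgERH nuclei with DMSO at 0.693, 0.691 and 0.682.

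Intron 5 of RPL10 (chrX:154399942-154400463, plus strand, 522 bases), a gene for a protein of the large ribosomal subunit, was lowest where both sgERH and CHX were present. It was at 0.541, 0.498 and 0.540 in control nuclei with DMSO and at 0.280, 0.278 and 0.305 in sgERH nuclei with DMSO. With CHX it was at 0.338, 0.292 and 0.319 in the control and at 0.127, 0.108 and 0.127 with sgERH. The groups with CHX did not overlap (log2 fold change -1.76, SE 0.17, adjusted p = 0.00077), nor did sgERH nuclei with and without CHX (-1.56, SE 0.17, adjusted p = 0.000441). Intron 10 of ACADVL (chr17:7222866-7223132, plus strand), which encodes an enzyme of fatty acid oxidation, was the member of highest depth. It was retained at 0.975, 0.966 and 0.968 in control nuclei with CHX and at 0.903, 0.902 and 0.885 with sgERH, a log2 fold change of -1.91 (SE 0.17, adjusted p = 0.000466). The call of ACADVL held in each alternative fit, and that of RPL10 for sgERH was lost with separate scaling (-0.93). The ACADVL ratios were near 1, where a small step of the ratio is a large step of depth over spliced reads.

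The members called higher in this comparison were introns of ZMYM6 and LTBP4. Intron 5 of ZMYM6 (chr1:35014889-35014987, minus strand, 99 bases), which encodes a zinc finger protein, was at 0.154, 0.2501 and 0.217 in control nuclei with CHX and at 0.599, 0.445 and 0.647 with sgERH. Its log2 fold change was 2.32 (SE 0.45, adjusted p = 0.00711). With DMSO it stood at 0.474, 0.615 and 0.482 in the control and 0.713, 0.603 and 0.536 with sgERH, where the guides overlapped. LTBP4, a protein that binds latent TGF-beta, had a log2 fold change of 1.08 (adjusted p = 0.0283), and its call was lost with DESeq2 and without any of the 3 control libraries or sgERH CHX nuclear replicate 3.

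CHX lowered retention in sgERH nuclei as well, and here the members in GC-rich sequence were called most often. Of 3821 tested members 938 (24.5%) were lower with CHX than with DMSO and 21 were higher, while among all 115988 introns tested 7.94% were lower and 0.88% higher (8.82% together). The median log2 fold change was -0.75 in members and -0.58 over all introns. This comparison shares the sgERH libraries with CHX with that of the guides. Separate scaling moved the median of all introns to -0.18 and gave 440 members lower and 72 higher (all introns: 3.09 and 2% respectively). Leaving out sgERH DMSO nuclear replicate 1, 2 or 3 gave 508, 410 or 493 calls in place of 959.

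The called share rose with GC content for CHX in sgERH nuclei and fell with it for the guides. Of members under 45% GC, 11.6% were lower with CHX than with DMSO (2.98% of all introns of this class). The shares were 21.3% (10.0%) between 45 and 55% GC and 36.97% (20.96%) above 55%. For sgERH against control under CHX, the called shares in the same order of GC were 49.4, 41.7 and 35.9%, against 17.1, 18.5 and 16.8% of all introns. The medians behind these counts were 0.629, 0.609 and 0.628 for the low-GC members in control nuclei with CHX, and 0.427, 0.388 and 0.440 in sgERH nuclei with CHX. The high-GC members were at 0.547, 0.530 and 0.529 in the control and 0.380, 0.341 and 0.369 with sgERH. With DMSO sgERH nuclei gave 0.485, 0.484 and 0.499 for low GC and 0.524, 0.517 and 0.526 for high GC, so the order of the GC classes turned between DMSO and CHX. By length, 34.0% of members under 500 bases, 24.5% of those from 500 to 2000 and 15.6% of longer ones were lower with CHX in sgERH nuclei (14.1, 8.63 and 4.19% of all introns). GC content and length vary together among introns and were not separated.

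**Figure D4:**
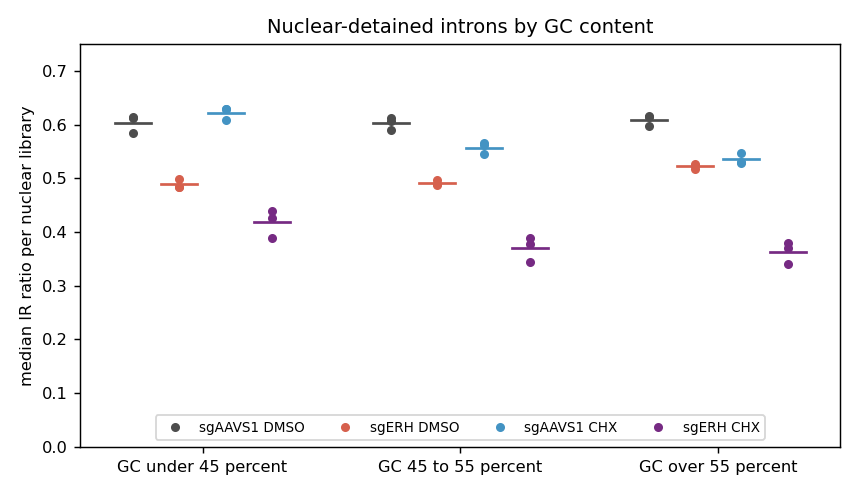
Median IR ratio of members in 3 classes of GC content in each nuclear library, by guide and treatment (points are libraries). Members of low GC content lie above those of high GC content in control nuclei with CHX and below them in sgERH nuclei with DMSO.

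Among the largest falls with CHX were those in PYCR1, an enzyme of proline synthesis, at 2 introns of the same transcript. Intron 6 (chr17:81933377-81934325, minus strand) was at 0.680, 0.676 and 0.671 in sgERH nuclei with DMSO and at 0.0847, 0.120 and 0.101 with CHX, a log2 fold change of -4.20 (SE 0.27, adjusted p = 6.58e-05). Intron 5 (chr17:81934490-81934652) went from 0.475, 0.511 and 0.506 to 0.0169, 0.0652 and 0.0386, a log2 fold change of -4.69 (SE 0.40, adjusted p = 0.000144). Control nuclei held the same contrast as values: intron 6 was at 0.814, 0.771 and 0.795 with DMSO and at 0.149, 0.208 and 0.169 with CHX. SLC29A2, a nucleoside transporter, fell by 4.58 (SE 0.44, adjusted p = 0.000255) on the log2 scale, from a mean of 0.655 ± 0.0714 to 0.0742 ± 0.0208 (SD, n = 3). All these calls held in each alternative fit.

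A few members rose with CHX. Intron 11 of TECPR1 (chr7:98232973-98233420, minus strand), a protein of autophagosome maturation, was at 0.169, 0.128 and 0.174 in sgERH nuclei with DMSO and at 0.450, 0.526 and 0.589 with CHX, with no overlap. Its log2 fold change was 2.55 (SE 0.34, adjusted p = 0.00121). Intron 18 of NCOA3, a coactivator of nuclear receptors (chr20:47647367-47649004, plus strand), went from 0.445, 0.444 and 0.390 to 0.762, 0.686 and 0.690, a log2 fold change of 1.75 (SE 0.33, adjusted p = 0.00659). The same intron was higher in control nuclei with CHX, at 0.864, 0.847 and 0.844, and the guides differed there by -1.20 (adjusted p = 0.0205), a call lost with separate scaling and without any of the 3 control CHX nuclear libraries. These changes run against those of most members.

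Intron 10 of OGA (chr10:101793999-101797979, minus strand, 3981 bases) moved with CHX in both fractions. OGA encodes the enzyme that removes O-GlcNAc from proteins, and its retained intron is a known point of control of its level. Nuclear IR ratios in sgERH cells were 0.326, 0.354 and 0.372 with DMSO and 0.564, 0.483 and 0.561 with CHX (log2 fold change 1.10, SE 0.23, adjusted p = 0.0118). Cytoplasmic ratios in these cells were 0.0327, 0.0425 and 0.0540 with DMSO and 0.104, 0.0976 and 0.114 with CHX (log2 fold change 1.39, SE 0.19, adjusted p = 0.0131). In nuclei with CHX the control was at 0.774, 0.778 and 0.801, above all sgERH libraries (log2 fold change -1.66, SE 0.21, adjusted p = 0.00155). The call of CHX was lost in the nucleus without sgERH DMSO nuclear replicate 1 or 2, and in the cytoplasm without DMSO replicate 1 or 2 or CHX replicate 1 or 3, with adjusted p up to 0.0628 and 0.0703. The call of the guides was lost with separate scaling (-0.83). In the cytoplasm with CHX the guides overlapped, at 0.131, 0.102 and 0.131 against 0.104, 0.0976 and 0.114.

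**Figure D5:**
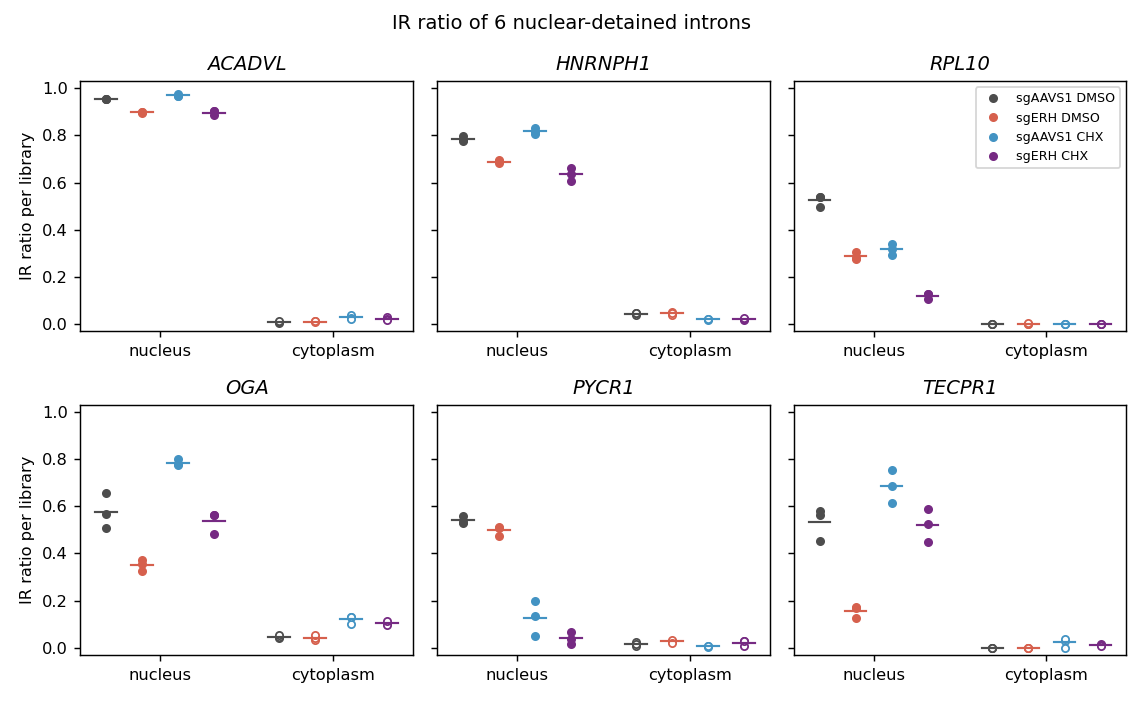
IR ratio of the member introns of ACADVL, HNRNPH1, RPL10, OGA, PYCR1 (intron 5) and TECPR1 in each of the 24 libraries (points, with a line at each group mean), with the nucleus and cytoplasm and the 4 kinds of cells along the horizontal axis. OGA and TECPR1 are higher and PYCR1 is lower with CHX than with DMSO in sgERH nuclei, and OGA reaches at most 0.131 in the cytoplasm.

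In the cytoplasm few members changed. With CHX, 34 of 3228 tested members were higher with sgERH and 8 lower, where 0.691 and 0.137% of all introns tested were higher and lower (0.827% together). The median log2 fold change was 0.18 in members and 0.31 over all introns tested. Separate scaling gave 20 higher and 13 lower, and a median of -0.06 in members and 0.07 over all, so the sign of the members' median depended on the scaling. The introns kept in both fractions had 48 higher and 10 lower of 1728. Leaving out control CHX cytoplasmic replicate 1, 2 or 3 left 13, 9 or 7 calls of the 42, and leaving out sgERH CHX cytoplasmic replicate 1, 2 or 3 left 8, 26 or 10. Intron 2 of TCF19 (chr6:31159708-31161446, plus strand), a transcription factor gene, was among those called higher. Its cytoplasmic IR ratio was 0.0274, 0.0154 and 0.0157 in control cells with CHX and 0.0942, 0.0632 and 0.0945 with sgERH, with no overlap. The log2 fold change was 2.17 (SE 0.34, adjusted p = 0.0157), and the call was lost without control CHX cytoplasmic replicate 2 or 3 or sgERH CHX cytoplasmic replicate 1 or 3 (adjusted p up to 0.0887).

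For CHX in sgERH cytoplasm 57 of 3435 tested members were called, 20 higher and 37 lower, beside 0.24 and 0.765% of all introns tested (1.01% together). The same limit of the call applies: the mean reached 0.05 in 586 members with DMSO and in 414 with CHX. The median log2 fold change was -0.45 in members and -0.26 over all, and with separate scaling 33 were higher and 24 lower. These calls were not stable: without sgERH DMSO cytoplasmic replicate 1, 2 or 3, edgeR called 5, 0 or 3 members (811, 853 or 752 at an unadjusted p under 0.05), and without sgERH CHX cytoplasmic replicate 1, 2 or 3 it called 2, 18 or 6. DESeq2 called 25 with all libraries. Intron 5 of TRMT61B (chr2:28850406-28851071, minus strand), a mitochondrial tRNA methyltransferase, shows the kind of change called. It was at 0.105, 0.153 and 0.181 in sgERH cytoplasm with DMSO and at 0.0353, 0.0327 and 0.0131 with CHX, with no overlap, and its log2 fold change of -2.63 (SE 0.46, adjusted p = 0.0273) lost its call with a replicate block and when any 1 of the 6 libraries was left out. The control with DMSO was at 0.00376, 0.0250 and 0.0111.

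As values, members in sgERH cytoplasm with DMSO were above the control by a median of 0.00417, with 2680 higher and 1108 lower. All sgERH libraries exceeded all control libraries in 955 members (25.0%), against 11% of all introns of enough depth. In nuclei with DMSO all sgERH libraries were below all control libraries in 1976 members (51.7%; all introns of enough depth 26%). Both counts use the libraries that chose the members, so nothing is read from them. The same holds for CHX in control nuclei, where 2440 members were lower and 1382 higher than with DMSO, by a median of -0.0474.

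Genes of RNA processing held members. Of 106 measured genes of the spliceosome, hnRNP and RBM families, 21 were hosts (19.8%), with 30 members, compared to 23.1% of all genes with an intron of enough depth. Of these 30, 21 were lower with sgERH under CHX and 3 were lower with CHX in sgERH cells, and the median IR ratio was 0.656 in control and 0.426 in sgERH nuclei with CHX. Among 30 SR proteins and relatives, regulators that bind exons, 6 were hosts (LUC7L2, RSRC2, SRSF10, SRSF11, THRAP3 and TRA2A), and 5 of their 8 members were lower with sgERH. A TRA2A intron was at 0.910 ± 0.0246 in control and 0.787 ± 0.0117 in sgERH nuclei with CHX (SD, n = 3), a log2 fold change of -1.47 (SE 0.25, adjusted p = 0.00461) that became -0.63 and lost its call with separate scaling.

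Genes of RNA methylation, export and decay had 7 hosts of 45 (EXOSC8, SMG5, SMG9, THOC1, THOC2, THOC6 and UPF3A), and 10 of their 12 members were lower with sgERH under CHX. THOC6, a subunit of the THO export complex, held a pair of neighbouring members of 74 and 84 bases (chr16:3025989-3026062 and chr16:3026167-3026250, plus strand). Intron 4 went from 0.769 ± 0.0194 to 0.576 ± 0.0501 with sgERH under CHX (log2 fold change -1.29, SE 0.24, adjusted p = 0.00635), and intron 3 from 0.786 ± 0.0451 to 0.591 ± 0.0838 (-1.33, SE 0.32, adjusted p = 0.0169). Separate scaling gave -0.45 and -0.48, not called, and intron 3 also lost its call without control CHX nuclear replicate 2 or 3. Hosts among 40 genes of p53, DNA damage and repair were ERCC2, ERCC3, FANCE, FANCG, FANCI, MDC1 and TP53BP1, and 7 of 12 members were lower. The kinases CDK11B, CLK3, HIPK1 and HIPK3 (4 of 16) held 8 members, 1 lower with sgERH and 3 lower with CHX.

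Of 313 measured zinc finger genes named ZNF, 64 were hosts (20.4%), and of their 115 members 40 were lower with sgERH under CHX, while CHX in sgERH cells lowered 15 and raised 2. The tRNA synthetases had 5 hosts of 32 with 6 members, and 1 was lower in each comparison. None of the 6 measured genes of the interferon-gamma pathway was a host (0 members). The called shares of these lists stand beside 41.8% (sgERH) and 24.5% (CHX) of all members, and no list was tested as a group.

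Introns next to a member stood between the members and the remaining introns of their transcripts. In control nuclei with DMSO the members in canonical transcripts had a median of 0.594, which the rule sets, the 3267 introns adjacent to them 0.152, and the other 18148 introns of the same transcripts 0.0646. Introns of genes with no member had 0.0413. In sgERH nuclei with CHX the same sets stood at 0.378, 0.0743, 0.0363 and 0.0236, so the order was kept in libraries that the choice did not use. A member lay next to another member in 582 of 2481 cases. Most host genes (1813) had members at 1 locus, 468 at more, and DENND4B, USP21 and SLC27A3 at 5.

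Members of 1 gene could move in different ways, as in LAMB2, a laminin chain with 4 members. Introns 26 (chr3:49123053-49123131) and 25 (chr3:49123374-49123446, both minus strand) are separated by a single exon. Intron 26 was at 0.859 ± 0.0170 in control and 0.592 ± 0.0558 in sgERH nuclei with CHX (log2 fold change -2.07, SE 0.24, adjusted p = 0.00109). Intron 25 was at 0.305 ± 0.0272 and 0.295 ± 0.0163 (-0.06, SE 0.21, adjusted p = 0.84). With CHX against DMSO in sgERH nuclei intron 25 fell by 1.38 on the log2 scale (SE 0.21, adjusted p = 0.00217), and intron 26 had 0.43 (SE 0.23, adjusted p = 0.239). Separate scaling left the call of intron 26 and took that of intron 25 (-0.97). A difference between introns of a gene was not tested.

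The 20 members with U12-type donors were lower with sgERH under CHX in 4 cases and lower with CHX in sgERH nuclei in 5. Of all U12-type introns tested 12.5% were lower in each comparison, and of all members 41.8 and 24.5%. The intron of ARPC5L shown above (chr9:124869440-124873691, plus strand), a gene of the actin-nucleating Arp2/3 complex, was at 0.471 ± 0.0268 in control and 0.233 ± 0.0349 in sgERH nuclei with CHX (log2 fold change -1.57, SE 0.26, adjusted p = 0.00428). The intron of ALG3 (chr3:184242958-184243553, minus strand), a mannosyltransferase of protein glycosylation, went from 0.481 ± 0.0601 with DMSO to 0.296 ± 0.0315 with CHX in sgERH nuclei (-1.14, SE 0.30, adjusted p = 0.03). The first call was lost with separate scaling (-0.74), and the second with separate scaling, with boundary reads and without any of the 3 DMSO libraries or CHX replicate 3 (adjusted p up to 0.155). The introns of PSMA1 (chr11:14513888-14514402, minus strand), a proteasome subunit, and SRSF10 (chr1:23975078-23978712, minus strand) were not called, with -0.85 (SE 0.22) and -0.68 (SE 0.36) for sgERH under CHX.

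Host genes were called at shares near those of all genes with an intron of enough depth. With CHX, 50 of 2265 tested host genes (2.21%) were higher and 56 (2.47%) lower with sgERH in the nucleus. Among all genes these shares were 5.29 and 3.68%. In the cytoplasm 25 of 2264 (1.10%) were higher and 20 (0.883%) lower, beside 5.79 and 1.43%. Median log2 fold changes were -0.12 and -0.09. Genes with an intron of enough depth are a closer background. Of 9723 in the nucleus 286 (2.94%) were higher and 191 (1.96%) lower, and of 9744 in the cytoplasm 153 (1.57%) and 85 (0.872%). With DMSO, which shares the control libraries with the choice, 21 host genes were higher and 43 lower in the nucleus (all genes 4.77 and 1.73%), and 28 and 53 in the cytoplasm (9.3 and 2.16%, together 11.5%). These are 0.927 and 1.90% of host genes in the nucleus and 1.24 and 2.34% in the cytoplasm. The closer background had 1.43 and 1.24% in the nucleus and 1.68 and 2.37% in the cytoplasm.

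FEZ2, a gene of axon outgrowth and fasciculation, was among the host genes with the largest falls, at 687, 666 and 754 CPM in control and 212, 221 and 229 in sgERH nuclei with CHX (log2 fold change -1.67, SE 0.07). BTN3A2, a butyrophilin, rose from 15.5, 15.7 and 17.7 to 49.8, 48.3 and 53.6 CPM there. In the cytoplasm with CHX, CHTF18, a subunit of a clamp loader in replication, was at 48.6, 55.8 and 50.4 CPM in the control and 18.97, 19.6 and 24.9 with sgERH. The guides did not overlap for these genes. Transcripts of host genes were more nuclear than those of other genes with introns of enough depth: the median log2 ratio of nuclear to cytoplasmic CPM was 0.54 against -0.26 in control cells with DMSO, 0.21 against -0.41 in control cells with CHX, 0.51 against -0.22 in sgERH cells with DMSO and 0.26 against -0.28 with CHX. CPM values of each fraction are shares of its own library, so a ratio gives an order of genes and not an absolute split.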

How the data were processed

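Per the labels, polyadenylated RNA of nuclear and cytoplasmic fractions was sequenced in 24 libraries, in 8 groups of 3. The expected counts per transcript that the authors deposited were summed per gene and rounded. They also gave intron tables of IRFinder-S on GRCh38. From the intron tables the deposited intron depth (coverage signal), the deposited counts of spliced reads and of reads across exon-intron boundaries, and the IR ratio, a fraction made by the authors, were used. The submitters' processing notes list fastp 0.23.4, STAR, RSEM 1.3.1, Subread 2.0.1 and SAMtools 1.16.1, with no roles. Any read inside an intron adds depth whatever its source, and the ratio uses the larger spliced count of the 2 ends.

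Introns were tested with edgeR 4.0.16 (R 4.3.3), quasi-likelihood, as the interaction of group and read type with 1 intercept per library, over introns with a mean of depth plus spliced reads of at least 10 and a mean depth of at least 1 in a group. Only the libraries of the compared groups were fitted. Genes were kept by filterByExpr (minimum count 10), scaled by TMM and tested with the 12 libraries of a fraction together. A gene was called at an adjusted p of at most 0.05 and a log2 fold change of at least 1 in size. Standard errors are the log2 fold change over the square root of F. The scripts were tested on simulated data. Comparisons with the control libraries with DMSO, which chose the members, were given as values for introns.

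The introns named are the 8 members of highest depth (1 per gene), the largest called changes of each comparison (up to 6 each way in the nucleus and 3 in the cytoplasm), up to 3 of each gene list, the genes with most members (up to 4), the introns next to the limits, and up to 4 with U12-type donors, and for host genes up to 3 each way per comparison. Some of these are given as counts only, and a few are left out here. The members and lists were chosen with earlier results of these data known. Intron numbers and exons came from the GENCODE v44 annotation, and 3820 of 3822 members matched an annotated intron. Sequences were read from GRCh38 with pysam 0.24.0. Alternatives were other scalings, boundary reads in place of depth, no depth filter, a replicate block, DESeq2 1.42.0 and each library left out. Same-numbered libraries deviated together in all 3 pairs with correlations over 0.1 in 1 of the compared settings, host genes in the cytoplasm with DMSO (0.132, 0.126 and 0.186), and the labels say nothing of pairing, so no block was used in the main tests; with it that comparison had 82 calls in place of 81. The deposited TPM values and transcript lengths were not used here.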

Additional observations from a re-analysis of the deposited data

How the results depend on the processing

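Counts of called members stayed within 1.5 times the main count in 46 of 77 alternatives, and moved further in 31. The cause was not tested, except that fits without a library hold fewer samples and separate scaling scales each kind of read on its own. For sgERH against control in nuclei with CHX, 1591 members were called, 130 with separate scaling and 862 with boundary reads, and 585 to 1434 with each library left out. In the cytoplasm with CHX the 42 calls became 23 with boundary reads, 16 with DESeq2 and 7 to 26 with a library left out. For CHX in sgERH nuclei the 959 calls became 512 with separate scaling, 481 with boundary reads and 410 to 871 with a library left out. In sgERH cytoplasm the 57 calls became 93 with no depth filter, 26 with boundary reads, 25 with DESeq2 and 0 to 18 with a library left out. Nucleus against cytoplasm gave 1922, 1801 and 1302 calls with separate scaling in place of 3801 (control, CHX), 3820 (sgERH, DMSO) and 3791 (sgERH, CHX). The replicate block moved the cytoplasmic CHX count from 42 to 21 and the other intron counts by less than 1.5 times. Same-numbered libraries had correlations of their deviations from -0.01 to 0.11 in the intron comparisons, so the numbers were not taken as pairs. Host gene counts stayed within 1.5 times in all 44 alternatives run. Fewer members could be tested in the cytoplasm (3228 and 3435 of 3822) than in the nucleus (3805 and 3821), since the filter asks for intron depth.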
